A study of Homo sapiens with 84 samples.

Results

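The transcripts of 5 genes of the urokinase system, PLAU, PLAUR, PLAT, SERPINE2 and SERPINB2, were followed across EGF and EpEX treatment of 2 squamous carcinoma cell lines. The genes were taken by symbol from 58395 Ensembl gene rows, and all 5 were present. Kyse30 is an esophageal and FaDu a hypopharyngeal squamous cell carcinoma line. Cells of both lines were starved of serum for 24 h and then left untreated or given EGF at 1.8 nM (EGFlow) or 9 nM (EGFhigh), the extracellular domain of EpCAM fused to an immunoglobulin Fc region (EpEX) at 50 nM, EGFhigh together with EpEX, or the Fc region alone. RNA was taken at 0 h from untreated cells and after 6 h and 72 h from every treatment. The values rest on 43 Kyse30 libraries in 13 conditions of 3 or 4 replicates and on 20 FaDu libraries, replicates 3 and 4, in which 7 conditions held 2 libraries and 6 held 1. Every group was serum-starved, untreated cells included, and each line is a single established line, so replicates are repeat samples of one cell population.

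Urokinase, encoded by PLAU, and tissue plasminogen activator, encoded by PLAT, are serine proteases that cut plasminogen to plasmin. PLAUR encodes the glycolipid-anchored receptor that holds urokinase at the cell surface, where plasmin formation is linked to matrix breakdown and cell movement. SERPINE2 encodes protease nexin 1 and SERPINB2 encodes plasminogen activator inhibitor 2, serpins that trap these proteases in inactive complexes. EGF receptor signaling through ERK is known to act on genes with AP-1 sites, and urokinase receptor is among the genes known to respond to it.

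On GRCh38, PLAU lies on the plus strand at chr10:73909177-73917497, PLAUR on the minus strand at chr19:43646095-43670547, SERPINE2 on the minus strand at chr2:223975112-224039319 and SERPINB2 on the plus strand at chr18:63871692-63903890. The AP-1 type motif TGANTCA, which reads the same on both strands, was searched in the 250 bases before each RefSeq start of GRCh38.p14. It occurred in 6.57% of 35116 such windows. It was absent from both PLAU windows and both SERPINE2 windows, and was present once each before PLAUR and SERPINB2. PLAT was not searched. Both matches are shown with the motif in capitals. Sequence outside these windows was not searched, so a member with no match may hold the motif elsewhere.

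PLAUR, chr19:43670338-43670366, minus strand, motif beginning 186 bases before the start: tcacaactccaTGAGTCAgggccgagcca

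SERPINB2, chr18:63887592-63887620, plus strand, motif beginning 102 bases before the start: gagtaaaatgtTGAATCActcaaaggaca

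The match before PLAUR lies inside an exon of a longer annotated PLAUR transcript. A match gives letters only and says nothing of binding in these cells.

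Reads came from the 3′ ends of transcripts and were counted per gene. Totals on genes ran from 1944948 to 11759799 counts in Kyse30 and from 6217938 to 12442349 in the FaDu replicates used. All 9 epithelial markers examined, among them EGFR, EPCAM and CDH1, averaged over 1 CPM (a gene's counts relative to the library's TMM-scaled total) in both lines. Their summed level was 2852 to 6219 CPM in Kyse30 and 2245 to 6890 CPM in FaDu. EGFR, the receptor treated, alone had a median of 2451 CPM in Kyse30, where the median sum was 4437 CPM. In FaDu it had 546 CPM and KRT17 914 CPM, where the median sum was 3263 CPM. KRT17 had 11.7 CPM in Kyse30. KRT5 and KRT14, defining squamous keratins, had a median of only 2.10 and 0.688 CPM in Kyse30, against 205 and 11.5 CPM in FaDu. The fibroblast list summed to at most 44.7 CPM, the leukocyte list to at most 11.6 CPM and the endothelial list to at most 7.44 CPM in Kyse30, and to at most 15.3, 5.00 and 9.52 CPM in FaDu. Of the fibroblast list, COL1A1 had a median of 14.1 CPM in Kyse30 and 8.71 CPM in FaDu and COL1A2 of 5.09 and 0.372 CPM, while DCN and LUM had a median of 0 in both lines. The 21 FaDu libraries of replicates 1 and 2 stood apart, with a median Spearman rho of 0.797 to replicates 3 and 4 and 0.801 among themselves, against 0.965 within replicates 3 and 4 over 14318 genes. They entered no comparison below and are given separately where they change one.

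**Figure D1:**
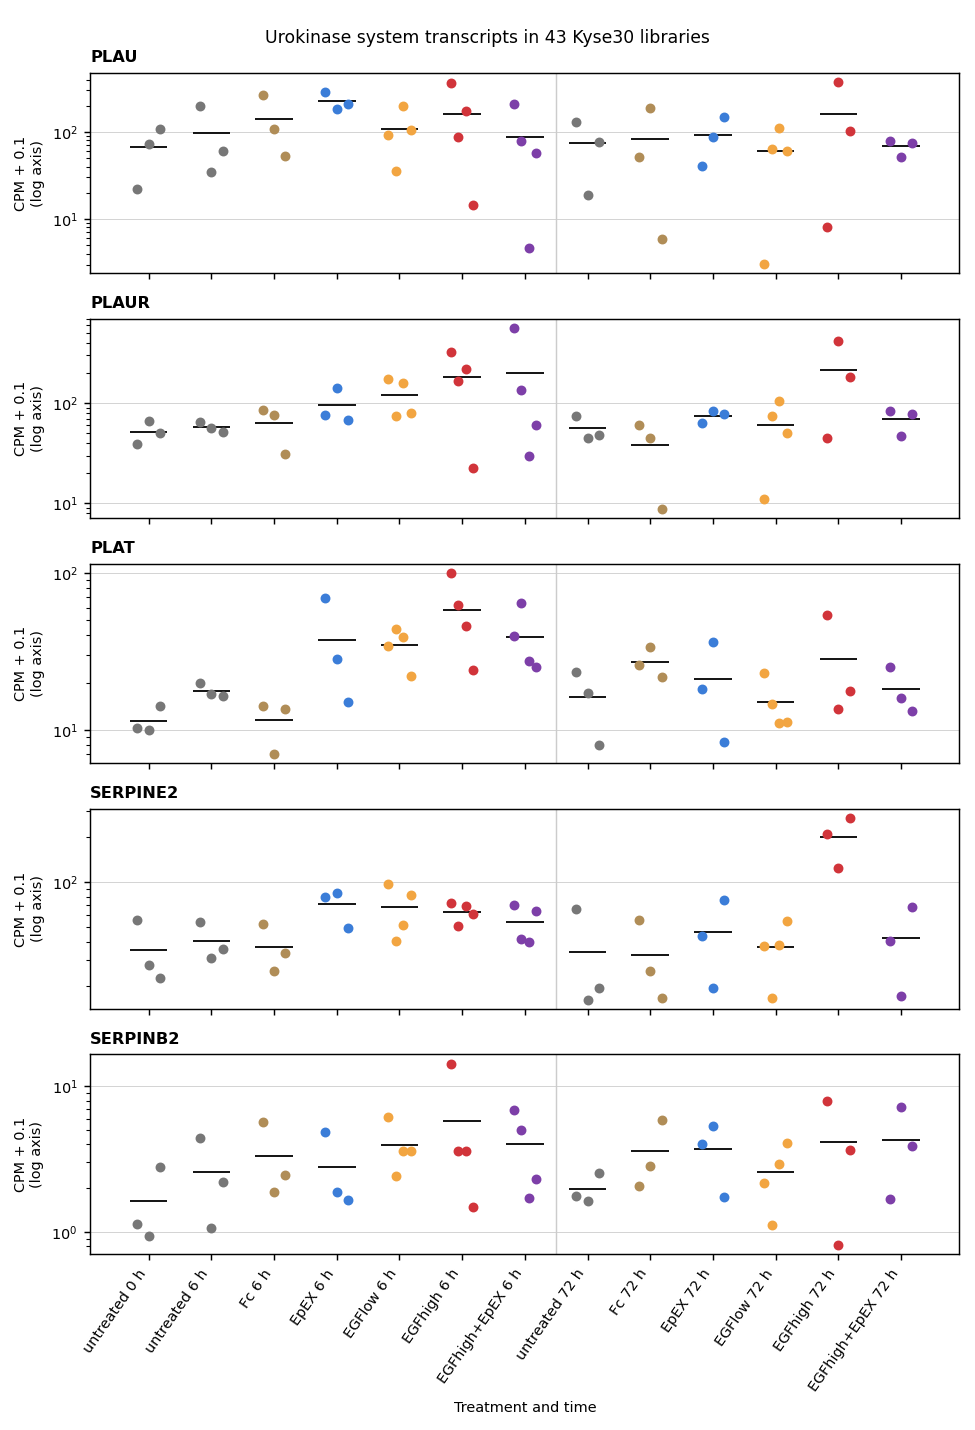
Level of each member in 43 Kyse30 libraries by treatment and time, as CPM plus 0.1 on a log axis. Points are libraries, black lines are condition means and the vertical line separates 6 h from 72 h. SERPINE2 at 72 h with EGFhigh sits at 124 to 268 CPM, above every other condition, while PLAU spreads from 2.96 to 372 CPM with no such separation.

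PLAU and PLAUR were the most abundant members in Kyse30 by read count, with medians over libraries of 78.5 and 74.0 CPM. SERPINE2 had a median of 50.6 CPM, PLAT of 21.6 CPM and SERPINB2 of 2.70 CPM. As each 3′ read stands for 1 transcript end, these levels do not scale with transcript length. In FaDu the medians were 46.2 CPM for PLAU, 20.1 for PLAT, 12.6 for SERPINE2, 7.64 for PLAUR and 0.0397 for SERPINB2. SERPINB2 was listed at 0 in 10 of the 20 FaDu libraries.

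A change was called at an adjusted p of at most 0.05 and a log2 fold change beyond 0.5, by edgeR's quasi-likelihood test with Benjamini-Hochberg adjustment over all genes tested. In Kyse30 the members gave 5 calls over 17 comparisons and in FaDu 5 calls over 7 comparisons. None of these calls concerned PLAU or SERPINB2. Over all genes tested, 0% to 6.2% were called in each Kyse30 comparison and 0% to 3.5% in each FaDu comparison. Of the 26 comparisons, 10 had no called gene at all (0% of all genes tested). In those 10, between 275 and 601 genes had an unadjusted p under 0.05, DESeq2 called at most 2, and 1 member value lay under that unadjusted p. In the 18 comparisons with no called member, 11 of 90 member tests had an unadjusted p under 0.05, as did 275 to 2410 genes in each of them, and DESeq2 called 2 members. One of the 11 is SERPINB2 in FaDu, which is too sparse there for a fold change. EGFlow and EGFhigh were compared with the same untreated libraries, and EpEX and EGFhigh+EpEX with the same Fc libraries, so these comparisons are not independent of each other.

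Of the receptor, PLAUR, untreated Kyse30 cells at 6 h held 65.0, 56.2 and 51.9 CPM in their 3 libraries. After 6 h of EGFhigh the 4 libraries held 321, 166, 222 and 22.4 CPM. Replicates 1 to 3 lay above every untreated library and replicate 4 below all of them. The log2 fold change was 1.66 ± 0.71 (SE), with an adjusted p of 0.23 by edgeR, so PLAUR was not called. EGFlow gave 175, 74.0, 160 and 79.0 CPM, all above the untreated libraries. Its log2 fold change of 1.08 ± 0.69 had an adjusted p of 0.53 by edgeR. With EGFhigh+EpEX the libraries ranged from 29.4 to 568 CPM, a 19.3-fold spread that was the widest of any Kyse30 condition for PLAUR. Against Fc, at 85.8, 75.8 and 30.7 CPM, the log2 fold change was 1.63 ± 0.71 and was not called (adjusted p = 0.18, edgeR). EpEX alone gave 76.2, 140.4 and 68.6 CPM, which overlapped Fc.

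At 72 h, PLAUR stood at 75.3, 44.7 and 48.1 CPM in untreated Kyse30 cells and at 45.0, 413 and 183 CPM with EGFhigh. Replicates 3 and 4 exceeded every untreated library and replicate 1 did not. The log2 fold change of 1.92 ± 0.74 had an adjusted p of 0.12 by edgeR. EGFlow gave 10.96, 74.7, 106 and 50.5 CPM at 72 h, and EGFhigh+EpEX 83.3, 47.4 and 78.7 CPM. EGFhigh exceeded EGFlow by a log2 difference of 1.83 ± 0.67, with an adjusted p of 0.13 by edgeR. Adding EpEX to EGFhigh gave a log2 difference of -1.61 ± 0.73 with an adjusted p of 0.26. The highest mean PLAUR levels among the 13 conditions were those of EGFhigh at 72 h, EGFhigh+EpEX at 6 h and EGFhigh at 6 h, at 214, 199 and 183 CPM, and the ranges of all 12 neighbouring conditions in this order overlapped.

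PLAU, the protease bound by that receptor, was not called in any comparison. It held 199, 35.0 and 60.5 CPM in untreated Kyse30 cells at 6 h and 366, 88.2, 174 and 14.3 CPM after EGFhigh. These groups overlapped, with a log2 fold change of 0.70 ± 0.95 (95% interval -1.21 to 2.61). At 72 h the untreated libraries held 131, 18.9 and 76.7 CPM and the EGFhigh libraries 8.05, 372 and 104 CPM. The log2 fold change was 1.08 ± 1.01 (interval -0.95 to 3.11). EpEX for 6 h had the highest mean, 227 ± 53.8 CPM (SD, n = 3), against 141 ± 110 CPM with Fc (n = 3), and these ranges also overlapped. Within EGFlow at 72 h the 4 libraries read 2.96, 63.9, 112 and 59.7 CPM, but the widest ratio within a condition, 46.9-fold, was that of EGFhigh+EpEX at 6 h. An antisense gene, C10orf55, shares 916 exon bases with PLAU and held 703 counts in the 63 libraries, against 41446 for PLAU.

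The spread of PLAU and PLAUR within conditions ran along a component shared with other genes. Deviations of single libraries from their condition means correlated between PLAU and PLAUR at r = 0.87 over 43 Kyse30 libraries, a description of libraries that share depth and preparation. The first component of these deviations, computed from 10238 other genes, held 18.5% of their variance. PLAU followed its library score at r = 0.92, and 0.195% of those genes did so as closely or more closely. PLAUR followed it at r = 0.74, a closeness that 5.23% of those genes reached, SERPINE2 at 0.23 and PLAT at 0.017. The spread of PLAU exceeded that of 99.96% of genes, and its deviation correlated with the share of reads not uniquely placed at r = -0.56 and with log2 total counts at -0.27. The part of this component in the PLAU and PLAUR differences between conditions was not tested.

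**Figure D2:**
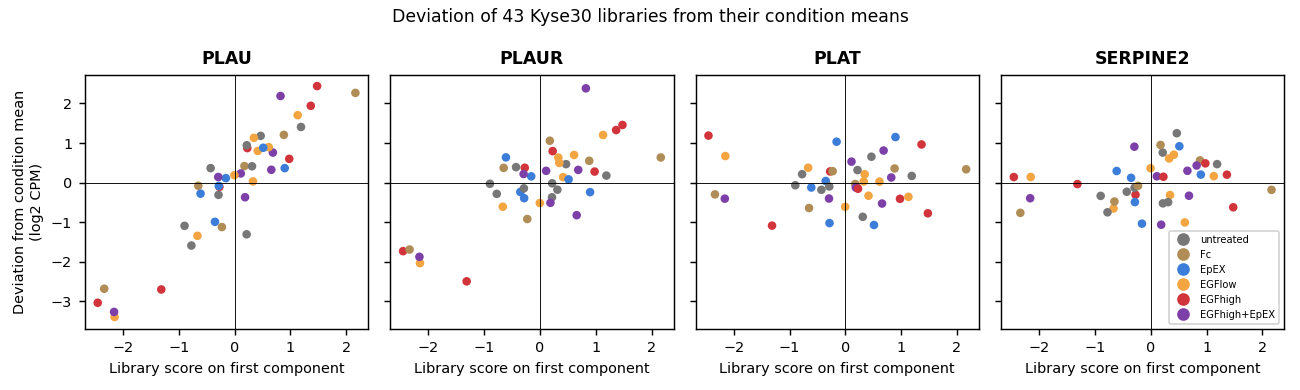
Deviation of each of 43 Kyse30 libraries from its condition mean in log2 CPM, against the library's score on the first component of the deviations of 10238 other genes. PLAU (r = 0.92) and PLAUR (r = 0.74) run along the score, PLAT (r = 0.017) does not.

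PLAT, the tissue-type activator, lies on the minus strand at chr8:42175233-42207724 and was the member called at 6 h in Kyse30. Untreated cells held 19.8, 16.8 and 16.4 CPM at 6 h. EGFhigh libraries held 99.9, 62.2, 45.8 and 23.9 CPM, and the lowest of them lay above the highest untreated library. PLAT rose 3.26-fold with EGFhigh (log2 1.70 ± 0.49, adjusted p = 0.047, edgeR), the 1 member called where 2.55% of 15350 genes were called. The call rested on a p close to the threshold: leaving out 1 library at a time, it held in 1 of 7 fits, with adjusted p between 0.022 and 0.18. EGFlow libraries held 34.3, 43.7, 39.0 and 21.9 CPM, again all above the untreated ones. The EGFlow difference of 0.98 ± 0.47 in log2 was not called (adjusted p = 0.35), and 0 of 5 members were called against 1.5% of genes.

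Against Fc, at 14.1, 6.91 and 13.5 CPM, PLAT rose 3.35-fold with EGFhigh+EpEX for 6 h (log2 1.74 ± 0.49, adjusted p = 0.031, edgeR). The 4 treated libraries held 39.8, 64.0, 27.3 and 25.1 CPM and did not overlap Fc. PLAT was 1 of 5 members called where 4.52% of genes were, and the call held in 3 of 7 fits that left out 1 library. EpEX alone gave 69.1, 28.4 and 15.1 CPM, also above every Fc library. Its log2 difference of 1.72 ± 0.52 was not called at an adjusted p of 0.20, in a comparison with 0.0261% of genes called. By 72 h PLAT had no call: EGFhigh libraries held 53.8, 13.6 and 17.6 CPM and untreated libraries 23.4, 17.2 and 7.98 CPM. The EGFhigh effect on PLAT differed between 72 h and 6 h by -0.91 ± 0.68 in log2 (adjusted p = 0.60, with 1.01% of genes called).

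SERPINE2, the inhibitor protease nexin 1, was the member called at 72 h. Untreated Kyse30 cells held 65.8, 16.2 and 19.4 CPM, and EGFhigh libraries 211, 124 and 268 CPM. Every EGFhigh library, replicates 1, 3 and 4, lay above every untreated one, replicates 1, 2 and 3. SERPINE2 rose 5.85-fold (log2 2.55 ± 0.50, adjusted p = 0.000815, edgeR) where 6.2% of genes were called. The call held in 6 of 6 fits without 1 library, with adjusted p of at most 0.017. SERPINE2 belongs to an EMT signature that the study built on these samples, so its direction at 72 h is no independent evidence for that list.

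EGFlow at 72 h left SERPINE2 at 37.3, 16.6, 37.8 and 55.2 CPM, within the untreated range. EGFhigh exceeded EGFlow by 2.45 ± 0.45 in log2 (adjusted p = 0.00056, edgeR), the 1 member called where 3.73% of genes were called, and 7 of 7 fits without 1 library kept the call. With EGFhigh+EpEX for 72 h the libraries held 40.5, 17.2 and 68.2 CPM. All 3 lay below every EGFhigh library. SERPINE2 was lower by 2.25 ± 0.50 on the log2 scale (adjusted p = 0.0046, edgeR) where 3.58% of genes were called. The groups hold unlike replicates, 1, 3 and 4 for EGFhigh and 1, 2 and 3 for EGFhigh+EpEX. Replicate 2 read lowest in untreated, EGFlow and EGFhigh+EpEX cells. Replicates 1 and 3, present in both groups, held 211 and 124 CPM with EGFhigh and 40.5 and 68.2 CPM with EGFhigh+EpEX. Without EGFhigh+EpEX replicate 2 the adjusted p of that difference was 0.076, with a log2 difference of -1.89. Against Fc, at 55.8, 25.2 and 16.8 CPM, EGFhigh+EpEX differed by 0.34 ± 0.49 in log2 (interval -0.64 to 1.32), with 0 genes called.

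At 6 h SERPINE2 was not called in Kyse30. Untreated libraries held 54.2, 30.9 and 35.8 CPM, EGFlow 97.4, 40.3, 51.2 and 82.0 CPM, EGFhigh 72.1, 50.6, 69.4 and 61.0 CPM, and EpEX 79.3, 84.4 and 48.8 CPM. The EGFhigh effect was larger at 72 h than at 6 h by 1.90 ± 0.66 in log2, with an adjusted p of 0.16, so the difference between time points was not called. Of 13 fits that left out 1 library, 1 called it, with adjusted p from 0.029 to 0.36 (edgeR) and differences from 1.57 to 2.85. The called fit was that without untreated replicate 1 of 72 h, whose 65.8 CPM was the highest of that group. In the order of the 13 condition means, EGFhigh at 72 h (201 CPM) was separated from the next condition, EpEX at 6 h (70.8 CPM), and the other 11 neighbouring pairs overlapped.

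SERPINB2, plasminogen activator inhibitor 2, was low in Kyse30, from 0.713 to 14.3 CPM and 888 counts in all 43 libraries. It read 14.3, 3.51, 3.51 and 1.38 CPM with EGFhigh for 6 h and 4.34, 0.96 and 2.10 CPM in untreated cells. The log2 fold change was 1.16 ± 0.76 (adjusted p = 0.51, edgeR) and no SERPINB2 difference was called in any Kyse30 comparison. The overlapping SERPINB10 shares 547 exon bases with it and held 9 counts in 63 libraries.

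**Figure D3:**
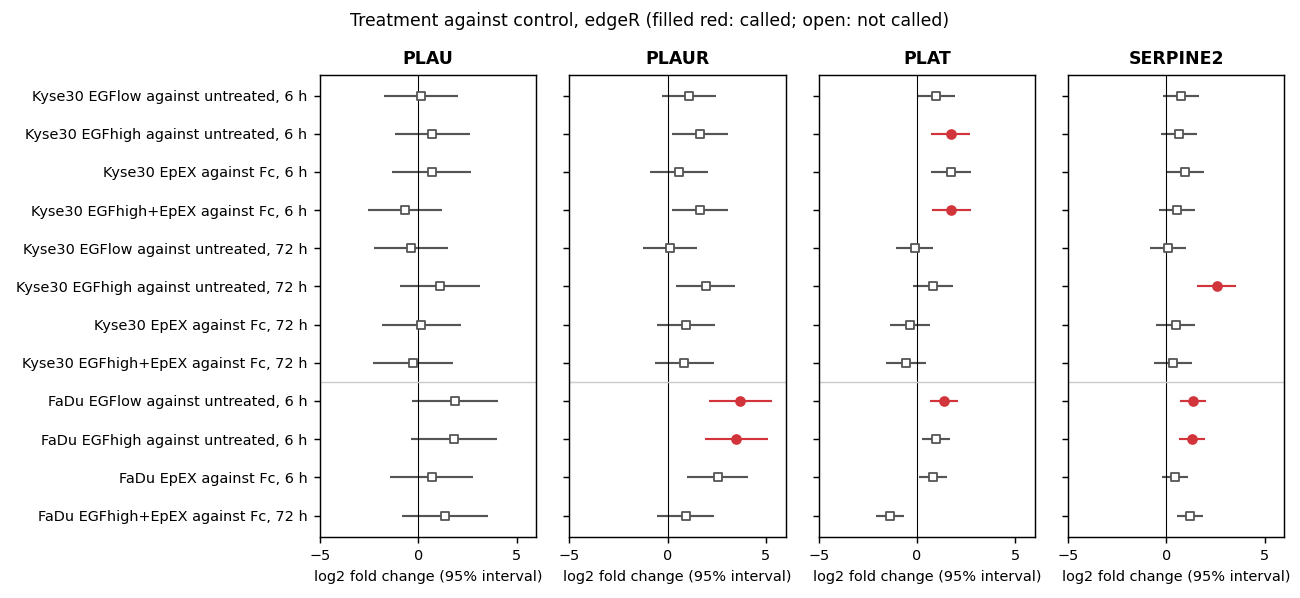
Log2 fold change of 4 members with 95% intervals in 8 Kyse30 and 4 FaDu comparisons of treatment with control. Filled red points passed the test and open squares did not. PLAT is called at 6 h and SERPINE2 at 72 h in Kyse30. At 6 h in FaDu, PLAUR and SERPINE2 are called with both EGF doses and PLAT with EGFlow.

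The untreated and Fc comparisons give the background for these values. No member was called between untreated Kyse30 cells at 72 h and 6 h, where 1.55% of genes were called, and member differences there ran from -0.38 to -0.037 in log2. Between 6 h and 0 h, and between Fc and untreated cells at either time, no gene was called. PLAT in Fc lay below every untreated library at 6 h, with a log2 difference of -0.61 ± 0.51 (interval -1.64 to 0.42). EGFhigh and EGFlow were not separated at 6 h for any member, with 0 genes called: the PLAT difference was 0.73 (interval -0.13 to 1.58), that of PLAUR 0.58 (-0.68 to 1.83) and that of SERPINE2 -0.10 (-0.94 to 0.74). Adding EpEX to EGFhigh for 6 h likewise gave no call, with a PLAT difference of -0.57 (-1.42 to 0.29).

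In FaDu, PLAUR had the largest difference among the called members. Untreated libraries at 6 h held 2.78 and 1.89 CPM (24 and 16 counts). EGFlow raised PLAUR to 14.9 and 46.1 CPM, a log2 fold change of 3.70 ± 0.77 (adjusted p = 0.010, edgeR), and EGFhigh to 9.23 and 44.1 CPM, 3.50 ± 0.76 (adjusted p = 0.014). Neither EGFlow nor EGFhigh overlapped the untreated libraries. The single library of EGFhigh+EpEX at 6 h, replicate 3, held 1.82 CPM of PLAUR, below both untreated libraries and the lowest of all 20. In both treatments replicate 4 read higher than replicate 3. With 2 libraries in each group, leaving out 1 library ended the call in 3 of 4 fits for each dose, with log2 fold changes of at least 2.65 and 1.97. FaDu replicates 1 and 2, scaled by totals on genes without TMM and not in the fit, went the other way for PLAUR at 6 h. There untreated cells held 77.4 and 24.6 CPM, EGFlow 10.0 CPM in its 1 library and EGFhigh 6.57 and 10.9 CPM. SERPINE2 in the same libraries read 6.16 and 4.33 CPM untreated, 8.83 CPM with EGFlow and 7.75 and 9.24 CPM with EGFhigh. In replicates 3 and 4, EpEX gave 7.33 and 26.6 CPM of PLAUR against 3.61 and 2.33 CPM with Fc. Its difference of 2.53 ± 0.74 was not called (adjusted p = 0.073), in a comparison with 3.5% of genes called and 0 of 5 members.

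Of the activators in FaDu, PLAT rose with EGFlow, from 15.4 and 12.1 CPM to 44.3 and 27.9 CPM (log2 1.39 ± 0.34, adjusted p = 0.028, edgeR). With EGFhigh it held 33.1 and 20.6 CPM, a difference of 0.97 ± 0.34 that was not called (adjusted p = 0.17), and with EpEX 34.4 and 22.8 CPM against 17.0 and 15.8 CPM, 0.80 ± 0.34 (adjusted p = 0.28). PLAU split by replicate in all these treatments. It held 50.3 and 21.8 CPM in untreated cells, 51.9 and 213 CPM with EGFlow, 13.5 and 240.5 CPM with EGFhigh, and 12.8 and 169 CPM with EpEX. Replicate 4 was the higher in each treated group and the lower in the untreated group. The EGFlow difference was 1.88 ± 1.04 and the EGFhigh difference 1.81 ± 1.04, neither called, and without EGFhigh replicate 4 the latter turned to -1.42.

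SERPINE2 rose in FaDu at both EGF doses. It went from 7.19 and 6.99 CPM in untreated cells to 18.8 and 17.1 CPM with EGFlow (log2 1.34 ± 0.31, adjusted p = 0.021, edgeR) and to 15.6 and 19.0 CPM with EGFhigh (1.28 ± 0.31, adjusted p = 0.030). The replicates of each group lay close together, with no overlap. Fc alone read 11.8 and 11.95 CPM, between the untreated and EGF libraries, and with untreated and Fc libraries together as control neither SERPINE2 difference was called (adjusted p = 0.14 and 0.19). EpEX at 13.6 and 18.4 CPM differed from Fc by 0.43 ± 0.30 (adjusted p = 0.59). In all, 3 of 5 members were called with EGFlow, where 3.45% of genes were, and 2 of 5 with EGFhigh, where 3.06% were. With all 41 FaDu libraries in the fit, 0 genes and 0 members were called in either comparison, and the PLAUR differences were 0.024 with EGFlow and -0.42 with EGFhigh. SERPINE2 lost both calls in each of the 4 fits that left out 1 library (adjusted p up to 0.17 and 0.21), with log2 fold changes of 1.27 to 1.40 for EGFlow and 1.14 to 1.40 for EGFhigh, and PLAT with EGFlow kept its call in 1 of 4. Each such fit leaves 1 library in an arm, which is assumed to vary like the other groups. EGFhigh and EGFlow were not separated in FaDu for any member, with 0 genes called and a PLAUR difference of -0.20 (interval -1.55 to 1.15).

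**Figure D4:**
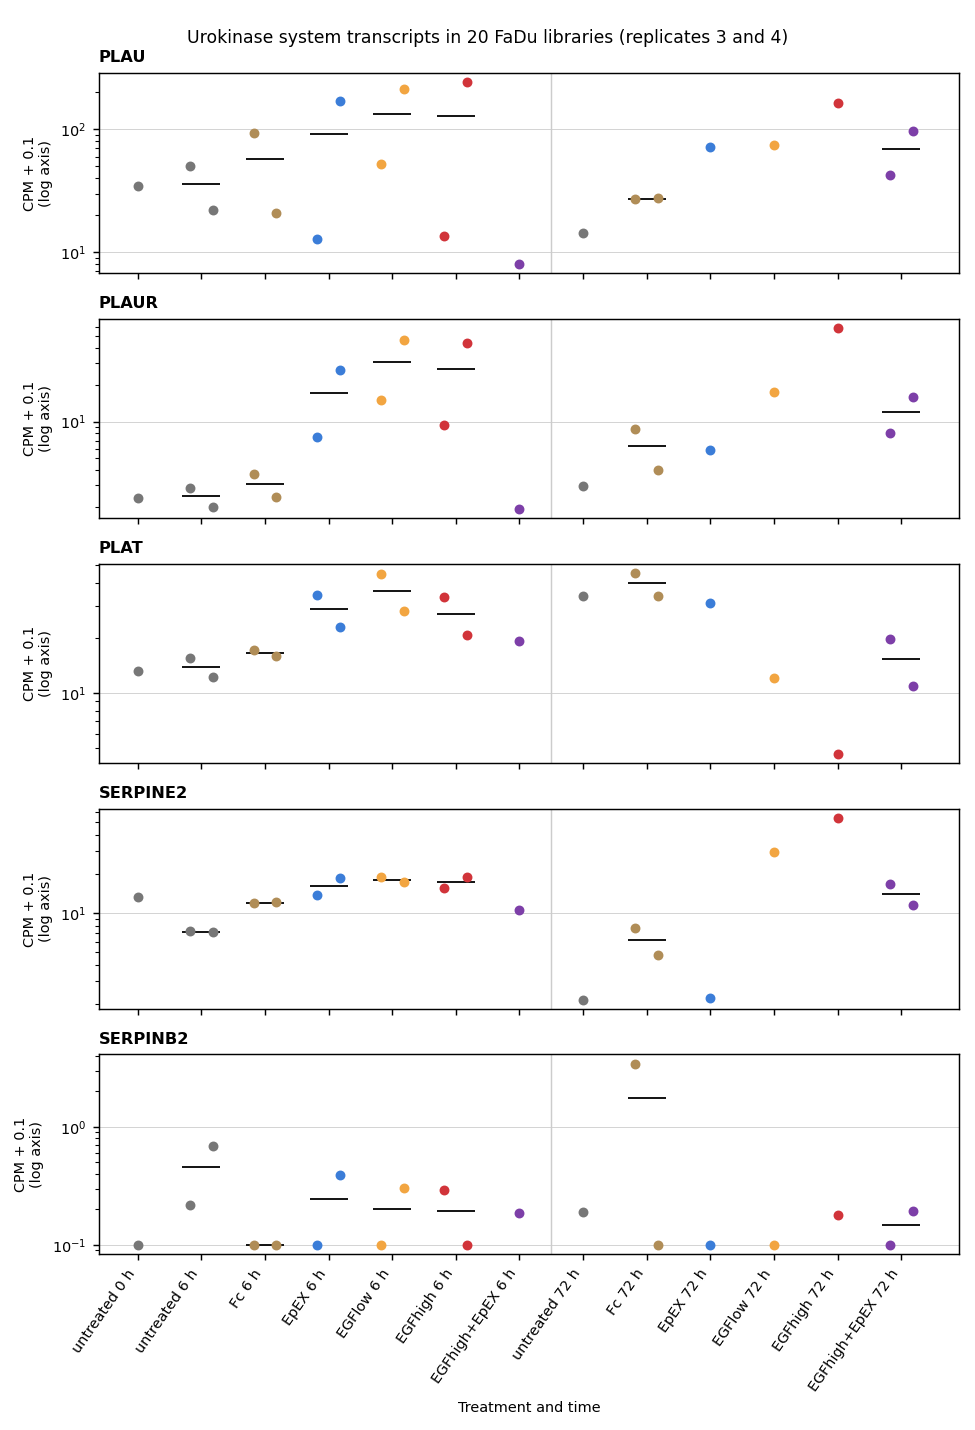
Level of each member in 20 FaDu libraries, replicates 3 and 4, by treatment and time, as CPM plus 0.1 on a log axis. Points are libraries and black lines the means of conditions with 2 libraries. PLAUR lies at 1.89 to 2.78 CPM in untreated cells at 6 h and at 9.23 to 46.1 CPM with EGF.

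At 72 h the FaDu tests were limited to EGFhigh+EpEX against Fc, as the other conditions held 1 library. PLAT stood at 19.7 and 10.8 CPM with EGFhigh+EpEX and at 45.1 and 33.9 CPM with Fc. The groups did not overlap, and the difference of -1.38 ± 0.34 had an adjusted p of 0.068 by edgeR. DESeq2 called this difference, with an adjusted p of 0.014. SERPINE2 differed by 1.19 ± 0.32 (16.5 and 11.5 CPM against 7.60 and 4.66 CPM, adjusted p = 0.12). PLAUR, at 7.96 and 15.7 CPM against 8.64 and 3.90 CPM, overlapped, with a difference of 0.93 ± 0.69. No member was called, against 0.818% of genes. Between Fc at 72 h and at 6 h, PLAT was higher by 1.27 ± 0.34, just past the threshold and not called (adjusted p = 0.0503, edgeR). That comparison had 2.88% of genes called, and 6 of 7 other settings called PLAT. Leaving out 1 library gave PLAT differences of 1.05 to 1.46 and no call.

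The single FaDu libraries of replicate 4 at 72 h are given as values with no test. EGFhigh held 58.8 CPM of PLAUR, 164 of PLAU, 53.6 of SERPINE2 and 4.52 of PLAT. The untreated library held 2.85, 14.2, 2.05 and 33.7 CPM of the same genes. EpEX held 5.75, 71.8, 2.10 and 30.8 CPM. PLAT was thus lowest, and PLAUR and SERPINE2 highest, in the EGFhigh library among all 20. FaDu replicates 1 and 2 at 72 h, scaled by totals on genes without TMM, did not both repeat this. Their untreated libraries held 56.6 and 29.6 CPM of PLAUR, 169 and 88.3 of SERPINE2 and 0.884 and 33.7 of PLAT. Their EGFhigh libraries held 15.6 and 60.4 CPM of PLAUR, 2.43 and 614 of SERPINE2 and 2.23 and 33.7 of PLAT. The single EGFlow library at 72 h, of replicate 3, held 17.4 CPM of PLAUR, 74.3 of PLAU, 29.3 of SERPINE2 and 11.9 of PLAT. Fc of replicate 3 at 72 h held 8.64, 27.2, 7.60 and 45.1 CPM of the same genes.

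SERPINB2 passed the filter on low counts in FaDu through 1 library, Fc at 72 h replicate 3, with 29 of its 46 counts in the 20 libraries of replicates 3 and 4. It had at most 3 counts in 18 of 20 libraries, so no fold change is given. Depth allows a level of up to 0.241 to 0.482 CPM in a library with no count.

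The lines were set side by side in 1 fit of 63 libraries. In untreated cells at 6 h, PLAUR was lower in FaDu replicates 3 and 4 than in Kyse30 by a log2 difference of -4.58 ± 1.04 (2.39 against 57.5 CPM on this fit's scale, adjusted p = 0.000619, edgeR). SERPINE2 was lower by -2.47 ± 0.57 (7.23 against 40.1 CPM, adjusted p = 0.00075). PLAU differed by -1.40 ± 1.18 and PLAT by -0.33 ± 0.54, neither called. FaDu replicates 1 and 2 were not in the fit, and their CPM was scaled by totals on genes without TMM. Their untreated cells at 6 h held 77.4 and 24.6 CPM of PLAUR, around the Kyse30 levels, and 6.16 and 4.33 CPM of SERPINE2. The PLAUR difference between lines is thus that of replicates 3 and 4 alone. These 2 of 5 calls stand beside 22.4% of 19634 genes called between the lines, and both held in 5 of 5 fits that left out 1 library. The EGFhigh effect at 6 h was not shown to differ between lines for any member, with 0.0611% of genes called: the difference was 1.82 ± 1.21 for PLAUR, 0.60 ± 0.71 for SERPINE2 and -0.76 ± 0.73 for PLAT.

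**Figure D5:**
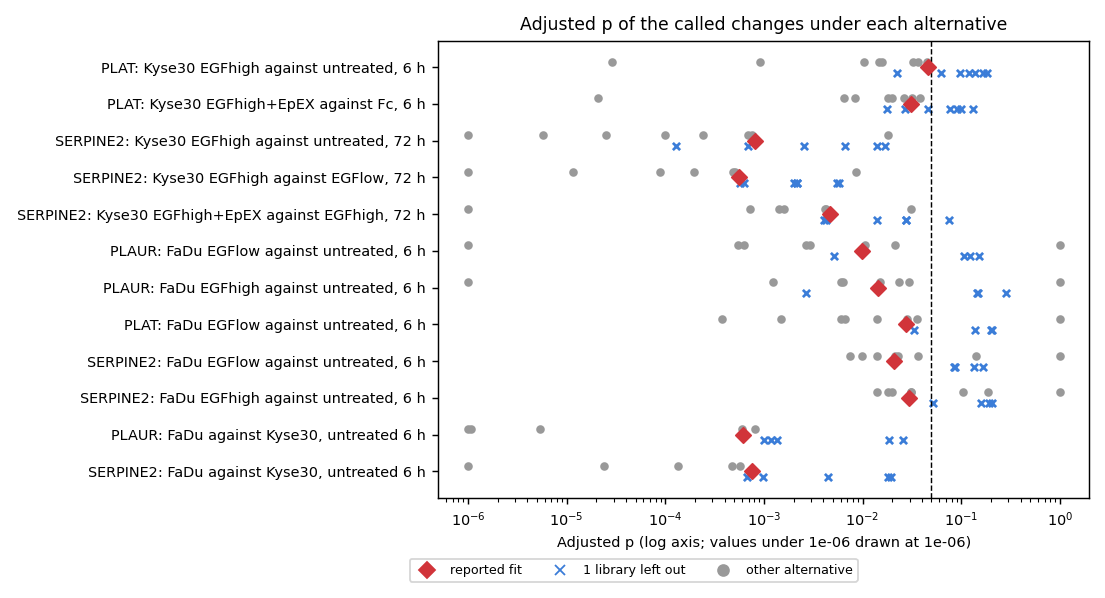
Adjusted p of the 12 called member differences in the reported fit (red diamonds), in fits that left out 1 library (blue crosses) and under other alternatives (grey points), on a log axis with the 0.05 threshold dashed. SERPINE2 in Kyse30 with EGFhigh at 72 h stays left of the line in all fits, and the FaDu calls at 6 h lie right of it in 3 or 4 of 4 fits without 1 library.

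Of 23 further genes of plasminogen activation, its surface receptors, clearance receptors and inhibitors, 13 were tested in Kyse30 and 16 in FaDu. PLG itself, the substrate of both activators, was at 0 in both lines, as were VTN and A2M. ANXA2 and S100A10, which form a plasminogen-binding complex at the cell surface, averaged 2048 and 955 CPM in Kyse30 and 680.3 and 673 CPM in FaDu. With EGFhigh for 72 h in Kyse30, where 6.2% of all genes were called, 2 of 13 rose and none was called lower: ANXA2 by 1.17 ± 0.25 and the lysosomal protease gene CTSB by 0.82 ± 0.21 in log2 (adjusted p = 0.0018 and 0.011, edgeR). The median over the 13 was 0.31, against -0.031 over all genes. The same 2 were the called genes of EGFhigh against EGFlow at 72 h, at 1.12 and 0.70, where 3.73% of all genes were called. Adding EpEX to EGFhigh lowered ANXA2 by a log2 difference of -0.96 ± 0.24 (adjusted p = 0.017, edgeR). It was the 1 called gene of 13, where 3.58% of all genes were called. At 6 h in Kyse30, F12, encoding coagulation factor XII, was the called gene with EGFhigh+EpEX against Fc (1.28 ± 0.29). That comparison called 4.52% of all genes. With EGFlow, EGFhigh and EpEX, where 1.5%, 2.55% and 0.0261% of all genes were called, 0 of 13 were called. LRP1, the endocytic receptor of protease-serpin complexes, was higher in untreated cells at 72 h than at 6 h by 2.07 ± 0.48 (adjusted p = 0.016, edgeR). There 1.55% of all genes were called.

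In FaDu, ANXA2 rose at 6 h with EGFlow (0.81 ± 0.15), EGFhigh (0.70 ± 0.15) and EpEX (0.67 ± 0.15), and at 72 h with EGFhigh+EpEX (1.06 ± 0.16). ST14, encoding matriptase, a membrane protease known to activate pro-urokinase, rose with EGFlow (0.78 ± 0.20, adjusted p = 0.034) and EpEX (0.90 ± 0.20, adjusted p = 0.013). EGFlow, EGFhigh and EpEX at 6 h called 3.45%, 3.06% and 3.5% of all genes, and EGFhigh+EpEX at 72 h 0.818%. With all FaDu libraries in the fit, no gene was called with EGFlow or EGFhigh at 6 h. None of the 16 was called lower with treatment, and medians over the list lay between -0.041 and 0.22, against medians over all genes of -0.017 to -0.0068. VLDLR, a further clearance receptor, was lower in Fc cells at 72 h than at 6 h by a log2 difference of -2.11 ± 0.36. There 2.88% of all genes were called. Between untreated lines, where 22.4% of all genes were called, 2 of 17 were higher and 5 lower in FaDu, with PLGRKT, a plasminogen receptor, at 2.56 ± 0.72 and ANXA2 at -1.98 ± 0.28 in log2. VLDLR averaged 9.50 CPM over the FaDu and 0.188 CPM over the Kyse30 libraries, and SERPINF2, encoding alpha-2-antiplasmin, 0.227 and 13.6 CPM.

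Among 12 other clade B serpins, the family of SERPINB2, 6 were tested in Kyse30 and 7 in FaDu. With EGFhigh for 72 h in Kyse30, where 6.2% of all genes were called, 3 of 6 rose: SERPINB8 by 3.42 ± 0.85, SERPINB1 by 1.84 ± 0.36 and SERPINB5, encoding maspin, by 1.36 ± 0.33 (adjusted p = 0.0085, 0.00072 and 0.0062, edgeR). The median was 1.03 against -0.031 over all genes. Against EGFlow, SERPINB1 was the 1 called gene (1.71 ± 0.33), where 3.73% of all genes were called. With EpEX added to EGFhigh, SERPINB1 and SERPINB6 were lower, at -1.33 ± 0.35 and -1.02 ± 0.27, where 3.58% of all genes were called. None of the 6 was called at 6 h in Kyse30 with EGFlow, EGFhigh, EpEX or EGFhigh+EpEX. There 1.5%, 2.55%, 0.0261% and 4.52% of all genes were called. In FaDu at 6 h, SERPINB8, SERPINB5 and SERPINB1 rose with EGFlow, at 2.79, 2.24 and 1.201 in log2, with EGFhigh, at 2.35, 1.82 and 1.01, and with EpEX, at 2.46, 2.22 and 1.11. Between untreated lines, where 22.4% of all genes were called, SERPINB5 was lower in FaDu (-3.10 ± 0.43). SERPINB6 and SERPINB1 were higher (1.25 and 1.06), as was SERPINB3, which averaged 1.83 CPM over the FaDu and 0.0407 CPM over the Kyse30 libraries.

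The genes with condition means most like those of each member were found by Pearson's r over the 13 Kyse30 conditions among genes averaging at least 5 CPM, as a description. For SERPINE2 they included PPP1R18 and LAMB3 (r = 0.96 and 0.95). PLAUR was followed by KRT6A, CLDN7 and INO80C (0.94, 0.93 and 0.92), PLAT by RABGEF1, SH3RF1 and AKIRIN1 (0.93, 0.92 and 0.91), PLAU by SPTSSA, MAPRE1 and SEC61B (0.96, 0.94 and 0.93) and SERPINB2 by GPR158, GOSR2 and ATP13A1 (0.88, 0.82 and 0.80). Among the members, condition means correlated most between PLAUR and SERPINE2 (r = 0.83) and least between PLAU and SERPINB2 (r = 0.15).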

How the data were processed

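The submitters' processing notes name STAR, HTSeq and GRCh38 (hg38), with no versions. The deposited values are raw counts of QuantSeq 3′ reads per Ensembl gene, made by the authors with HTSeq, 1 table per library; the tallies of reads assigned to no gene, 33.7% to 52.1% of a Kyse30 table and 50.3% to 60.3% of a FaDu table, were left out of library sizes. The strand setting is not given in the sources used here. Symbols came from GENCODE 29 and matched 58275 of 58395 rows. Counts were scaled by TMM and tested with edgeR 4.0.16 (R 4.3.3) after filterByExpr (minimum count 10, minimum total 15), with 1 fit per line over all of its conditions and 1 joint fit of 63 libraries; a log2 fold change is given with its standard error, and intervals are 95%. Log2 CPM used a prior count of 2. The test was checked on simulated counts. The members, the gene lists and the comparisons were chosen with earlier results of these data known. Named genes are the 5 members, up to 4 called genes per list with the largest change, and the 3 genes most like each member. Some genes that this rule names are not reported here. Alternatives were DESeq2 1.42.0, RLE scaling, other filters, only the groups compared, the replicate number as a block, a joint control, all 41 FaDu libraries, each library left out and, chosen after seeing the data, a library score as covariate in Kyse30. The study describes micrographs of these treatments as coming from independent experiments but does not say so of the sequenced libraries, so p-values may measure a technical spread between these samples. Same-numbered Kyse30 libraries deviated together weakly, at a mean correlation of 0.117 (-0.28 to 0.55), against -0.040 for libraries of other numbers. In FaDu the mean was 0.158 (-0.20 to 0.55). Groups of 2 libraries give equal and opposite deviations there, so other numbers add no separate comparison. The numbers were not taken to pair the libraries, and the replicate block is given as an alternative.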

Additional observations from a re-analysis of the deposited data

Results flagged for a closer look

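Among the 20 sets of 4 Kyse30 libraries examined for a sample far from the others, 1 was noted, where chance gives about 1 in 20. SERPINB2 with EGFhigh at 6 h read 14.3 CPM (42 counts) in replicate 1, against 3.51, 3.51 and 1.38 CPM in the other libraries.

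The FaDu libraries of replicates 1 and 2, which entered no comparison, held their highest treated value of each of the 5 members in EpEX at 72 h replicate 1, and for 2 members it exceeded every control library. PLAT read 571 CPM there (scaled by totals on genes without TMM), above the 0.867 to 206 CPM of the 8 control libraries of those replicates. SERPINE2 read 1046 CPM there, against 3.59 to 530.3 CPM in the same controls. No group difference was tested in these libraries alone.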

How the results depend on the processing

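Values here are numbers of members called. Without a filter on low counts, the quasi-likelihood dispersions were drawn to a common value, and Kyse30 gave 1 with EGFlow at 6 h, 2 with EGFhigh at 6 h, 1 with EpEX at 6 h, 2 with EGFhigh+EpEX at 6 h, 3 with EGFhigh at 72 h, 3 for EGFhigh against EGFlow and 3 for EGFhigh+EpEX against EGFhigh at 72 h, and 1 for the change of the EGFhigh effect. FaDu then gave 1 with EpEX, 2 with EGFhigh+EpEX at 72 h and 2 between Fc times, and the difference of lines in EGFhigh effect 1. With only the groups compared, Kyse30 EGFlow at 6 h gave 1, and FaDu EGFhigh 1, EGFhigh+EpEX 2 and Fc times 1. With untreated and Fc together as control, Kyse30 EGFhigh+EpEX at 6 h and EGFhigh at 72 h gave 2 each, and FaDu EGFhigh 1, EpEX 1 and EGFhigh+EpEX 2. DESeq2 gave 1 in FaDu for EGFhigh+EpEX and 1 for Fc times, and RLE scaling and the 5 CPM filter 1 each for Fc times. The library score as covariate, chosen after seeing the data, gave 2 for EGFhigh against EGFlow at 72 h, but it is built from deviations within conditions and so removes residual spread by construction.

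With all 41 FaDu libraries, EGFlow and EGFhigh gave 0, and log2 differences turned to -0.42 (PLAUR, EGFhigh), -1.27 (PLAUR, EpEX), -2.43 (PLAUR, EGFhigh+EpEX), -0.12 (PLAT, EpEX) and -3.51 (SERPINE2, EpEX). The cause was not tested. The replicate block, with numbers not taken to pair libraries, gave 1 in FaDu for each of EpEX at 6 h, EGFhigh+EpEX at 72 h and Fc times.

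Leaving out 1 library gave 0 to 1 members with Kyse30 EGFhigh and EGFhigh+EpEX at 6 h, 0 to 1 for EGFhigh+EpEX against EGFhigh at 72 h and for the change of the EGFhigh effect, 0 to 1 in FaDu with EGFlow, EGFhigh and EpEX. Log2 differences reached -0.19 (SERPINE2, Kyse30 EGFhigh+EpEX against Fc, 72 h, up to 1.01), -0.08 (PLAU, Kyse30 EGFhigh, 6 h, up to 1.74), -0.44 (PLAU, Kyse30 EGFhigh, 72 h, up to 1.77) and -1.42 (PLAU, FaDu EGFhigh, 6 h, up to 2.72). The next ranges cover the reported fit and every alternative, not only fits without 1 library. Over all genes, calls ranged for Kyse30 EpEX at 6 h from 4 to 106, for Kyse30 EGFhigh at 72 h from 502 to 1628 and for FaDu EGFhigh from 0 to 763.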
